A study of Mus musculus with 72 samples.

Results

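The insulin-like growth factor (IGF) axis was followed in mouse interfollicular epidermis through 10 genes of the 46078 counted. They were the ligand gene Igf2, the receptor gene Igf1r, the 6 binding protein genes Igfbp2 to Igfbp7, the imprinted non-coding RNA H19 and the RNA-binding protein gene Igf2bp2. They were found by symbol, and all 10 were among the 18538 genes with enough counts to test. These genes were chosen on differences between genotypes seen earlier in the same libraries, a low Igfbp5 and a high H19 and Igf2bp2 in KO with a return in RE, so their differences between genotypes are given below as a description with no test. Tests were kept for time of day, for covariation between animals and for other genes.

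All animals were C57BL/6 females of 8 weeks, 1 per library, kept at 12 h of light per day until 7 weeks of age and then for 156 to 176 h in constant darkness. WT mice carried K14-Cre; KO mice carried Bmal1-stopFL, a stop cassette that blocks the clock gene Arntl (Bmal1), and no Cre; RE mice carried Bmal1-stopFL with K14-Cre, which removes the cassette in cells that use the keratin 14 promoter, the basal keratinocytes and their offspring. Each genotype had 24 animals, 4 at each of 6 time points. Because both WT and RE carried Cre and KO did not, the presence of Cre and the loss of Arntl cannot be told apart in any comparison with KO, and cells of RE that never used the keratin 14 promoter kept the cassette. Arntl lay between 18.1 and 99.2 CPM (reads per library scaled to a common total, with TMM factors) in WT, between 26.1 and 35.1 CPM in KO and between 47.1 and 76.1 CPM in RE, and every RE animal exceeded every KO animal. It cycled in WT (peak-to-trough 2.19 ± 0.13 on the log2 scale, edgeR adjusted p = 2.05e-20) and was not called in KO (adjusted p = 0.893) or RE (adjusted p = 0.568).

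The libraries of WT held 27.6 to 46.4 M counts, those of KO 24.5 to 44.9 M, and those of RE 25.6 to 95.0 M. Basal keratinocyte markers summed to 13200 to 37800 CPM in WT, whereas the endothelial list summed to at most 5.84 CPM in any library and the adipocyte list to at most 1.88 CPM. Adipoq, Plin1, Cdh5 and Kdr were too low to test. The hair follicle list summed to 1010 to 1810 CPM in WT and the sebaceous gland list to 703 to 2220 CPM. The fibroblast list reached at most 172 CPM in any library. Replicate 4 of time point 6 in KO stood apart, with a mean of the basal keratinocyte markers that deviated by -1.75 on the log2 scale from its group. The next lowest library, replicate 4 of WT at time point 6, deviated by -0.793. Several of the results that rest on the KO library are given with and without it. Mitochondrial counts were high in several libraries of time point 6, at 8.36% and 5.7% in replicates 4 and 2 of WT, 5.94% in replicate 1 of RE and 5.47% in replicate 4 of KO, against medians of 2.51% to 2.54% in the genotypes; their part in the values of that time point was not tested. In such bulk samples, fewer cells of a type and less RNA per cell cannot be told apart.

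IGF ligands signal through the receptor encoded by Igf1r to PI3K, AKT and mTOR. Secreted IGF binding proteins hold the ligands and carry or withhold them, and proteases release them. H19 and Igf2 are neighbours that share enhancers, with H19 expressed from the maternal and Igf2 from the paternal copy, and H19 is also the precursor of a microRNA. IGF2BP proteins bind and stabilise mRNAs, and Igf2 mRNA gave them their name.

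The 2 mature microRNAs made from H19 are shown first, because their precursor is the RNA that was high in KO, followed by the promoters of the genes that differed most. H19 lies at chr7:142575529-142578143 on the minus strand (GRCm38) and Igf2, 72622 bases away, at chr7:142650766-142666816 on the same strand. Mature miR-675 comes from within H19; its arms are printed with the seed (bases 2 to 8) in capitals, as RefSeq gives them on GRCm38.
miR-675-5p: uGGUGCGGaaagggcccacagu
miR-675-3p: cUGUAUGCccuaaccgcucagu
The arms do not share a seed, and the libraries did not measure mature microRNAs. Igf1r has been described as a target of miR-675 in mouse placenta. The longest annotated 3′ UTR of Igf1r, 7267 bases, held 2 matches to the miR-675-3p seed (GCATACA), beginning at its bases 505 and 1264, and none to that of miR-675-5p (CCGCACC). Among 417 genes with a 3′ UTR of like length, 38.4% held at least 1 miR-675-3p match, against 8.36% of all 21153 3′ UTRs. The first of these sites is printed with the match in capitals.
Igf1r site: cctcatcaccccGCATACAcctgc

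Promoter windows of 250 bases before to 50 bases after the start, from RefSeq, were found for 9 of the 10 genes; H19 had no entry. The coordinates are those of GRCm38. Both strands were searched for 3 clock motifs, the E-box CACGTG that ARNTL and CLOCK bind, the D-box TTATGTAA and the ROR element core AGGTCA, and no match overlapped another. Neither Igfbp5 nor Igf2bp2 had any of these letters in its window. Their promoters are printed for that reason, and they differ in base composition, with 56.3% G and C and 10 CpG in Igfbp5 against 76.7% and 47 in Igf2bp2.
Igfbp5, chr1:72874816-72875115, minus strand: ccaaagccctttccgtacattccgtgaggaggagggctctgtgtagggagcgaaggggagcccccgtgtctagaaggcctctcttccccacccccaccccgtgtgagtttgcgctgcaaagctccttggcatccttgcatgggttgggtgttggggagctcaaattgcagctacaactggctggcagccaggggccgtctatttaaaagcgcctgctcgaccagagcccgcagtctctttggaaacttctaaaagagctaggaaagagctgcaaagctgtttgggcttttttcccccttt
Igf2bp2, chr16:22163250-22163549, minus strand: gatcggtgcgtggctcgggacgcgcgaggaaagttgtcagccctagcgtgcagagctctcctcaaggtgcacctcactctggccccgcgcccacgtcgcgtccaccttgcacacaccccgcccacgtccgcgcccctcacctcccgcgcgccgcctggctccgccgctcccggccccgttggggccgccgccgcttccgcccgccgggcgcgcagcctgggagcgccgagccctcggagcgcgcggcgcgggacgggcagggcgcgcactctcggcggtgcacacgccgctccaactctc
The E-box occurred once among these genes, in 1 of the 2 Igfbp2 windows, 142 bases before the start, and is printed in capitals. Over all 32851 mouse promoter windows 7.15% held it.
Igfbp2, chr1:72824230-72824529, plus strand: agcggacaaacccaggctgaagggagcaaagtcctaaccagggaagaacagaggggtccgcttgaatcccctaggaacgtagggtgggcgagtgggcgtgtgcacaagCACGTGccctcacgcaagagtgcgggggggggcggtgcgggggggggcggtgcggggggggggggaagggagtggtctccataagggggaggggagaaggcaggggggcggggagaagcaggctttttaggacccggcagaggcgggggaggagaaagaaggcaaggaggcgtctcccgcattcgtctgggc
The ROR element core was found in 1 of the Igf2 windows, at 234 bases before the start, and in that of Igf1r, at 86 bases before it, against 16.3% of all windows. The D-box, in 0.938% of all windows, was found in none of them. These matches are letters and not binding, and no match says only that the letters are not in these windows.

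Per kb of exon sequence, the WT medians ordered the genes from Igfbp3 (200 CPM per kb), through Igfbp7 (11.8), Igfbp4 (6.05), Igf1r (2.81), Igfbp2 (1.68), Igfbp5 (1.34), H19 (1.32), Igfbp6 (0.223) and Igf2bp2 (0.219), to Igf2 (0.0596). Igfbp3, the binding protein gene best known for carrying IGFs in blood, stood apart from all others: its lowest WT animal was at 122 CPM per kb and the highest of Igfbp7 at 16.2. The ranges of all other neighbours in this order overlapped. The receptor was thus read far above its ligand in every genotype, with Igf1r at a median of 47.2 CPM in WT and Igf2 at 0.341 CPM, a median of 13.5 reads. Igf1, the other ligand gene, had a WT median of 0.0699 CPM and was listed at 0 in at least 1 animal of each genotype.

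**Figure D1:**
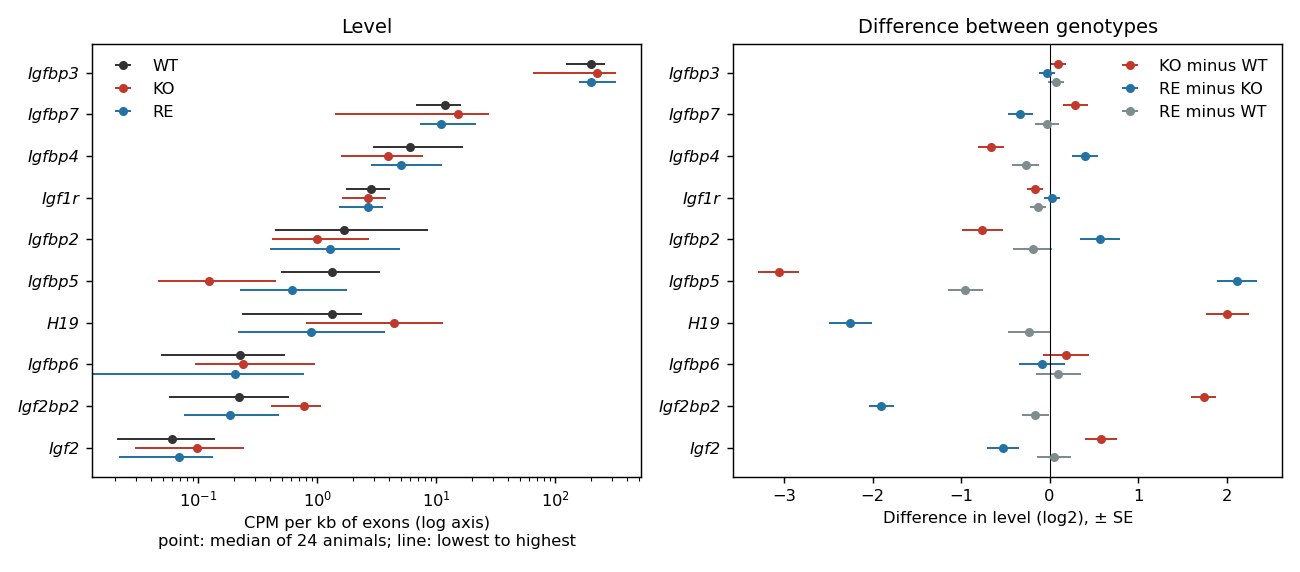
Left, level of the 10 genes per kb of exons on a log axis, with the median of 24 animals as a point and the lowest and highest animal as the ends of the line; the RE line of Igfbp6 starts at 0 and runs off the axis. Right, differences between genotypes on the log2 scale with standard errors; Igfbp5 (-3.06), H19 (2.01) and Igf2bp2 (1.74) lie farthest from 0 in KO minus WT, and all 3 turn back in RE minus KO.

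Igfbp5, which encodes a binding protein with a strong affinity for extracellular matrix, had the widest gap of the 10 genes and lies at chr1:72857932-72874884 on the minus strand. Its levels in WT were 2.98, 8.03 and 20.3 CPM (lowest, median, highest of 24), in KO 0.277, 0.746 and 2.72 CPM and in RE 1.33, 3.71 and 10.6 CPM. All 24 KO animals lay below the lowest WT animal. A complete separation of this kind occurred in 7 genes downward (0.0378% of those tested) and in 7 upward (0.0378%), and since Igfbp5 was chosen for its low level in KO, nothing is read from that share. The fitted level was 8.36-fold lower in KO than in WT (log2 difference -3.06 ± 0.23, SE). RE was 4.34-fold above KO (2.12 ± 0.23) and still 1.93-fold below WT (-0.95 ± 0.20), so that 69.1% of the log2 gap was regained. 16 of the 24 RE animals exceeded the highest KO animal, and 8 were below the lowest WT animal.

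KO minus WT of Igfbp5 was negative at all 6 time points, from -2.03 at time point 2 to -3.97 at time point 4 on the log2 scale. At time point 4 the 4 WT animals read 11.5, 6.01, 6.15 and 13.3 CPM, the KO animals 0.744, 0.621, 0.335 and 0.403 CPM and the RE animals 5.28, 2.46, 10.6 and 5.21 CPM. RE overlapped WT there and KO lay far below both. At time point 5 the WT animals read 9.29, 4.96, 15.8 and 20.3 CPM and the RE animals 1.33, 3.54, 2.29 and 3.39 CPM. That was the time point with the largest remaining gap between RE and WT (-2.14), and the groups did not overlap, whereas at time point 6 RE and WT differed by 0.13.

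Igf2bp2, at chr16:22059009-22163299 on the minus strand, was higher in KO. WT animals ranged over 0.422, 1.62 and 4.31 CPM, KO animals over 2.99, 5.67 and 7.93 CPM and RE animals over 0.562, 1.35 and 3.53 CPM (lowest, median, highest). In KO, 20 of 24 animals exceeded the highest WT animal, and 23 of 24 RE animals lay below the lowest KO animal. KO was 3.33-fold above WT (1.74 ± 0.14), RE was 3.72-fold below KO (-1.90 ± 0.14) and RE minus WT was -0.16 ± 0.15. The KO difference was positive at all 6 time points (1.30 to 2.63), and RE minus KO ran only from -2.14 to -1.74. The single WT animal that reached into the KO range, at 4.31 CPM, was replicate 4 of time point 4. Its paralog Igf2bp3, an oncofetal family member, stayed near 1 CPM, with medians of 0.935, 0.998 and 1.02 CPM in WT, KO and RE (KO minus WT -0.05 ± 0.11, adjusted p = 0.8).

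H19 was also higher in KO, with a wider spread between animals. Its levels were 0.575, 3.24 and 5.78 CPM in WT, 1.97, 10.9 and 27.8 CPM in KO and 0.533, 2.17 and 9.15 CPM in RE. KO was 4.04-fold above WT (2.01 ± 0.24), RE 4.74-fold below KO (-2.25 ± 0.24), and RE minus WT was -0.23 ± 0.24. 20 KO animals exceeded the highest WT animal, and 10 RE animals lay below the lowest KO animal, which was replicate 4 of time point 6, the library with few basal keratinocyte reads. Without it, 21 RE animals lay below the lowest KO animal, at 3.28 CPM. Leaving out any one of the 72 libraries kept the log2 difference between KO and WT between 1.90 and 2.14.

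The H19 gap between KO and WT was uneven over the 6 time points, though a difference in rhythm was not called (edgeR adjusted p = 0.168). At time point 2 the KO animals read 24.8, 14.8, 12.2 and 17.0 CPM and the WT animals 1.34, 2.37, 0.575 and 1.57 CPM, a log2 difference of 3.61. At time point 6 the KO animals read 4.97, 8.00, 10.7 and 1.97 CPM and the WT animals 3.26, 4.54, 5.78 and 2.65 CPM, a difference of 0.47, and the groups overlapped. Without replicate 4 of KO, the library that stood apart, the difference was 0.95, still the smallest of the 6 time points, and the groups still overlapped. At time point 4, too, KO was low, with 7.02, 6.00, 3.28 and 3.45 CPM, while replicate 3 of RE reached 9.15 CPM, the highest RE value.

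**Figure D2:**
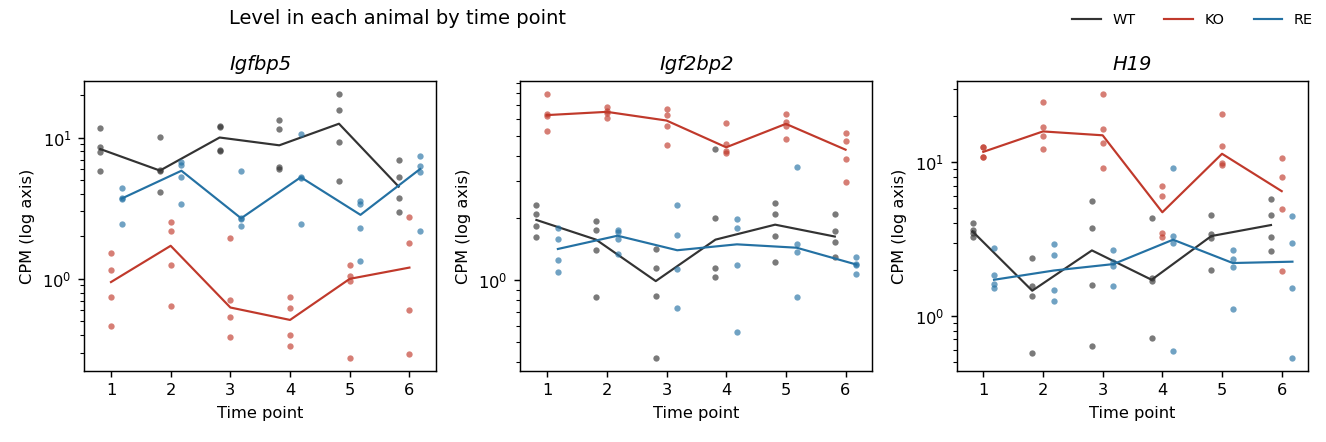
Levels of Igfbp5, Igf2bp2 and H19 in CPM on log axes by time point; each point is 1 animal and lines join the medians of 4 animals of WT, KO and RE. All KO animals lie below all WT animals for Igfbp5, KO Igf2bp2 runs in a narrow band between 2.99 and 7.93 CPM, and KO H19 is lowest at time points 4 and 6.

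Igf2, the ligand gene beside H19, was 1.49-fold higher in KO (0.58 ± 0.18) and 1.45-fold lower in RE than in KO (-0.53 ± 0.18), at 0.119, 0.341 and 0.786 CPM in WT, 0.166, 0.559 and 1.37 CPM in KO and 0.124, 0.390 and 0.753 CPM in RE. The ranges overlapped broadly. At time point 3 the KO animals read 0.551, 1.13, 0.923 and 1.37 CPM against 0.282, 0.237, 0.336 and 0.292 CPM in WT, without overlap (1.56), while at time points 1 and 6 the difference was negative (-0.28 and -0.29, the latter -0.12 without replicate 4 of KO). Igf2 overlaps the antisense gene Igf2os, no source used here gives the strand setting, and reads of the pair cannot be told apart.

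Among the other binding protein genes, the fitted levels of Igfbp2 and Igfbp4 were lower in KO than in WT and those of Igfbp3, Igfbp6 and Igfbp7 were not. They lie at chr1:72824503-72852474 (Igfbp2, plus strand), chr11:99041244-99054392 (Igfbp4, plus), chr11:7206086-7213923 (Igfbp3, minus), chr15:102144362-102149511 (Igfbp6, plus) and chr5:77349240-77408041 (Igfbp7, minus). Igfbp2 had medians of 3.1 CPM in WT, 1.82 CPM in KO and 2.34 CPM in RE (KO minus WT -0.76 ± 0.23, RE minus KO 0.57 ± 0.23). Igfbp4, which tends to withhold IGFs, had medians of 26.7, 17.2 and 22.3 CPM (-0.66 ± 0.15 and 0.40 ± 0.15). Both overlapped widely between genotypes: 1 KO animal lay below the lowest WT animal for Igfbp2 and 4 did for Igfbp4. Igfbp2 and Igfbp5 lie 5457 bases apart on chromosome 1, transcribed towards each other, and their levels differed in the same direction in KO.

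Igfbp7, a relative with low affinity for IGFs, had medians of 14.2, 18.5 and 13.2 CPM in WT, KO and RE (0.29 ± 0.14 and -0.33 ± 0.14). 10 KO animals exceeded the highest WT animal and 3 lay below the lowest, so its KO range of 1.70 to 33.6 CPM enclosed that of WT. Without replicate 4 of time point 6 the lowest KO animal read 6.9 CPM, and 2 lay below the lowest WT animal. Igfbp3 differed by 0.10 ± 0.09 between KO and WT at medians of 627 and 700 CPM. Igfbp6, which prefers IGF2, was near the limit of detection at a WT median of 9.5 reads and differed by 0.19 ± 0.26. Igf1r, at chr7:67952827-68233668 on the plus strand, differed by -0.16 ± 0.09 (1.11-fold lower) with medians of 47.2, 44.5 and 44.6 CPM.

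**Figure D3:**
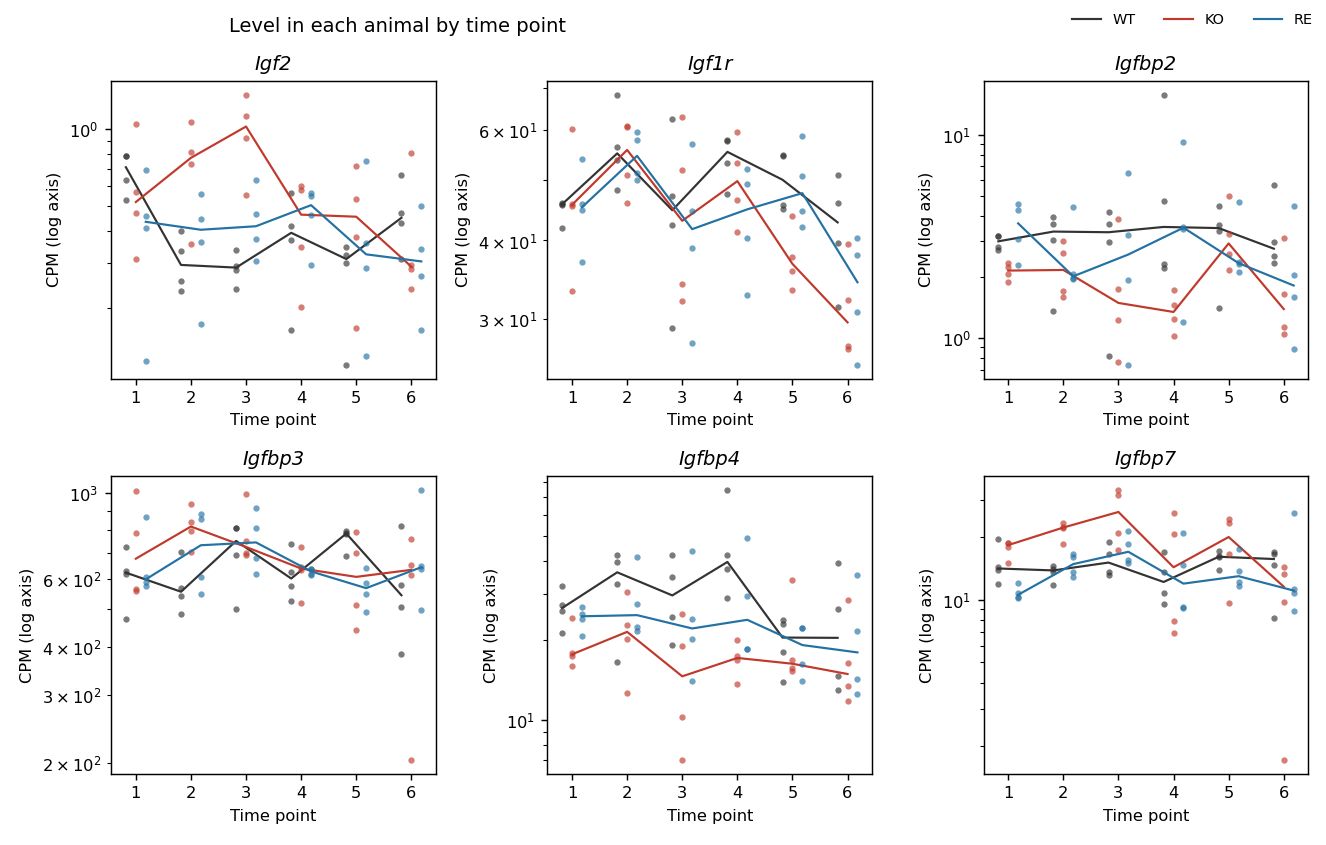
Levels of Igf2, Igf1r, Igfbp2, Igfbp3, Igfbp4 and Igfbp7 in CPM on log axes by time point; points are animals, lines join the medians of 4 animals. Taken over all time points the genotypes overlap for all 6 genes, but KO and WT separate at single time points, as for Igfbp4 at time point 4. The lowest KO points of Igfbp3 (203 CPM) and Igfbp7 (1.70 CPM) are the same library at time point 6.

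None of the 10 genes was called for a 24 h rhythm by edgeR's quasi-likelihood test in WT, KO or RE, where 11%, 5.87% and 2.7% of all genes were. At an unadjusted p under 0.05 there were 2 in WT (Igf2 and Igfbp4), 4 in KO (Igfbp7, Igf1r, Igf2 and Igfbp3) and none in RE. The share of all genes at that unadjusted threshold was not computed, so nothing is read from these counts. The nearest to the threshold was Igf1r in KO, with a peak-to-trough difference of 0.62 ± 0.18 on the log2 scale and an adjusted p of 0.0611. With DESeq2 its adjusted p was 0.0448, and with time point as a factor it was 0.0394, so the call turns on the model. Its 4 KO animals read 27.1, 39.5, 32.1 and 26.8 CPM at time point 6 and 45.9, 50.8, 60.9 and 60.8 CPM at time point 2, without overlap. Igf2 in KO followed (1.16 ± 0.35, edgeR adjusted p = 0.0776), then Igfbp7 in KO (0.92 ± 0.28, adjusted p = 0.0823).

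No difference in rhythm was called between KO and WT (6.21% of all genes), between RE and WT (2.17%) or between RE and KO (0%) by edgeR. For KO against WT, 4 of the 10 had an unadjusted p under 0.05: Igf2 (edgeR adjusted p = 0.0796), Igfbp5 (0.139), H19 (0.168) and Igfbp3 (0.174). Here too the share of all genes at the unadjusted threshold was not computed, and nothing is read from the count. The fitted peak of Igf2 lay at 22.67 h in WT and 5.66 h in KO, that of H19 at 19.38 h and 4.91 h and that of Igfbp5 at 12.16 h and 0.64 h, each counted from time point 1 on an assumed spacing of 4 h. These phases belong to cycles that were not called and are given as values.

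Animals of the same genotype and time point were compared next, after subtracting the mean of their group from log2 CPM, so that neither genotype nor time of day enters. Of 6 pairs tested, 2 covaried. H19 and Igf2 were high in the same animals (Pearson's r = 0.47, Spearman's rho = 0.49, n = 72, permutation p = 6e-05, adjusted over the 6 pairs 0.00036), and r was 0.45 without the 2 libraries farthest from the median of H19. Within genotypes r was 0.17 in WT (permutation p = 0.476), 0.67 in KO (0.00193) and 0.55 in RE (0.00124); a difference between genotypes was not tested. H19 and Igfbp5, which differed in opposite directions between KO and WT, varied in the same direction between animals (r = 0.36, rho = 0.33, adjusted permutation p = 0.0385). But without the 2 farthest libraries the adjusted permutation p was 0.105, and leaving out time point 4 took r to 0.21. The call was lost without any one of 18 libraries (r from 0.29 to 0.36). Within KO r was 0.19, and 0.51 without replicate 4 of time point 6. H19 with Igf2bp2 (r = 0.18), Igf2bp2 with Igfbp5 (0.09), Igfbp2 with Igfbp5 (0.20) and Igf2 with Igf2bp2 (0.05) were not called.

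Over all 45 pairs, a family added after the data were seen, 14 were called at an adjusted permutation p under 0.05, 13 positive and 1 negative. The share of called pairs over all genes was not computed, so nothing is read from this count. The closest was Igf2bp2 with Igfbp2 (r = 0.75, rho = 0.67, adjusted p = 0.000225, r = 0.74 without the 2 farthest libraries). It held within WT (0.88), KO (0.56) and RE (0.71), although these genes differ in opposite directions in KO. Igfbp2 also followed Igfbp4 (r = 0.70, rho = 0.65), Igfbp3 followed Igfbp7 (0.64, rho 0.54) and Igfbp4 followed Igfbp6 (0.57, rho 0.57). The Igfbp3 and Igfbp7 relation dropped from 0.74 to 0.53 within KO without replicate 4 of time point 6, and H19 with Igfbp7 within KO went from 0.87 to 0.81. The only negative pair was Igf1r with Igfbp6 (-0.39, rho -0.33, adjusted p = 0.0185).

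**Figure D4:**
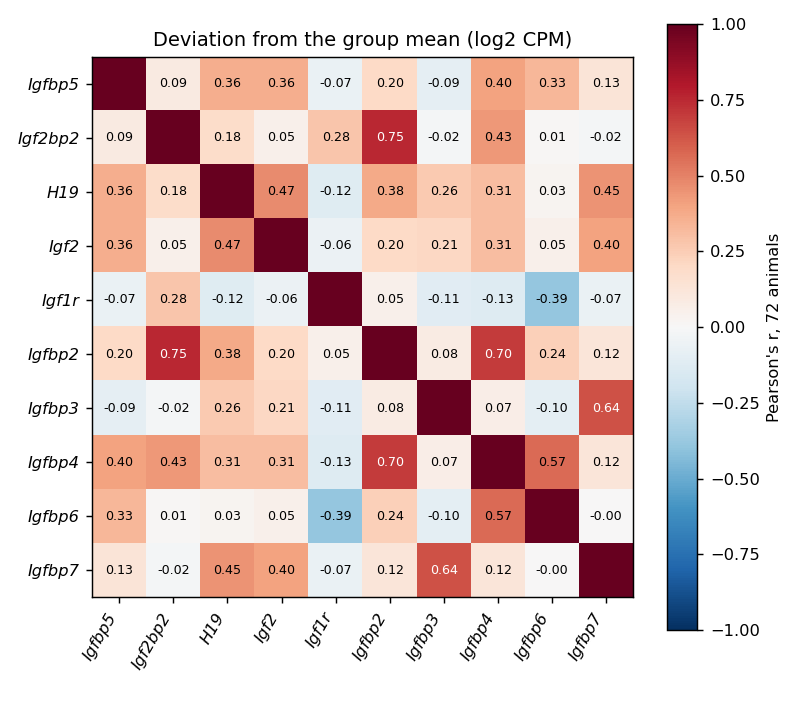
Pearson's r between the 10 genes over 72 animals after subtraction of the mean of each of the 18 groups, printed in each cell. The highest values are those of Igf2bp2 with Igfbp2 (0.75), Igfbp2 with Igfbp4 (0.70), Igfbp3 with Igfbp7 (0.64) and Igfbp4 with Igfbp6 (0.57).

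The same deviations were set beside the mean log2 CPM of 15 lists of cell type markers. These 150 relations were chosen after the data were seen, and 34 were called (31 positive). The share of such calls over all genes was not computed, so nothing is read from the counts. Of the Merkel cell list only Piezo2 had enough counts to test, and of the adipocyte list only Fabp4, at WT medians of 0.278 and 0.111 CPM. Igfbp2 followed the sebaceous gland list, which holds Elovl3, Soat1 and Mc5r among others (r = 0.80, rho = 0.70, adjusted permutation p = 0.0003), and so did Igf2bp2 (r = 0.69, rho = 0.57, adjusted p = 0.0003). Igfbp2 was called with 7 of the 15 lists and Igf2bp2 with 3, and over the 72 animals the sebaceous list was the closest for both. Igf2bp2 was also called with the Langerhans cell list (r = 0.43, rho = 0.52, adjusted permutation p = 0.000833). Within WT, KO and RE that r was 0.33, 0.53 and 0.55. For Igf2bp2 the relation with the sebaceous list held in WT (r = 0.79) and RE (0.79) and not in KO (0.09), and for Igfbp2 r was 0.89, 0.91 and 0.37. The difference between genotypes was not tested. Deviations of the sebaceous list from its group means ran from -1.09 to 0.536 in KO and from -0.949 to 0.962 in WT on the log2 scale. None of the 6 sebaceous markers was called between KO and WT or between RE and KO, by edgeR. Their part in the level of Igf2bp2 was not tested.

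Igfbp3 followed the basal keratinocyte list (r = 0.74, rho = 0.62, adjusted p = 0.000643) and ran against the suprabasal list (-0.60, rho -0.43). Without the 2 libraries farthest from the median of the basal list the first value was 0.60. Within KO it was 0.84, and 0.66 without replicate 4 of time point 6. Igfbp3 was called with 5 lists in all, Langerhans cells (0.55, rho 0.41) and dendritic epidermal T cells (0.51, rho 0.41) among them. Igfbp4 was called with 9 of the 15 lists, among them the endothelial (0.64, rho 0.59), fibroblast (0.61, rho 0.57), sebaceous (0.60, rho 0.51), melanocyte (0.55, rho 0.57), hair follicle (0.51, rho 0.58) and Merkel cell (0.51, rho 0.45) lists. Igfbp6 was called with 5, of which the hair follicle list was the closest (0.58, rho 0.58). Of the 15 lists, Igfbp5 was called with the hair follicle list alone (0.44, rho 0.40, adjusted permutation p = 0.0221). Within WT, KO and RE this r was 0.15, 0.68 and 0.29, and 0.62 in KO without replicate 4 of time point 6. H19 was called with the basal list alone (0.36, rho 0.33, adjusted permutation p = 0.0391), where leaving out replicate 4 of time point 6 took r within KO from 0.60 to 0.29.

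Markers of several lists were called between genotypes, where 14.6% of all genes were higher in KO than in WT and 13.6% were lower. By edgeR's test, all 7 suprabasal markers were higher in KO than in WT (median log2 difference 0.49), with sums of 13500 to 55900 CPM in KO, 11900 to 37200 CPM in WT and 15700 to 24100 CPM in RE. Of 9 markers of the hair follicle matrix and inner root sheath, 7 were lower (median -1.76; sums of 15.3 to 25.2 CPM in KO and 17.9 to 57.2 CPM in WT) and 1 was higher. Of the melanocyte list, 4 of 7 were lower, of the dendritic epidermal T cell list 3 of 6, and of the Langerhans cell list 2 of 6. Among erythrocyte markers 3 of 5 were higher, and among skeletal muscle markers 2 of 6. Of the basal list 1 of 7 was lower and of the hair follicle list 1 of 10 higher, near the shares of all genes. No fibroblast, endothelial, pericyte, sebaceous, adipocyte or Merkel cell marker was called between KO and WT, with 1 marker tested in each of the adipocyte and Merkel cell lists. Between RE and KO, where 11.5% of all genes were higher and 11% lower, 5 of 7 suprabasal markers were lower. Of 10 hair follicle markers 5 were lower and 1 higher, and of 6 dendritic epidermal T cell markers 3 were higher. Each other list had at most 1 call in that comparison. The part of the marker lists in the differences of Igfbp5, H19 and Igf2bp2 was not tested. Igfbp5 deviated with the matrix and inner root sheath list at r = 0.15 (rho = 0.21, adjusted permutation p = 0.332). Within WT, KO and RE r was -0.06, 0.50 and 0.32, and 0.39 in KO without replicate 4 of time point 6. Igf2bp2 deviated with the suprabasal list at r = -0.29 (rho = -0.23, adjusted permutation p = 0.0871), and at -0.53, -0.09 and -0.22 within WT, KO and RE.

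**Figure D5:**
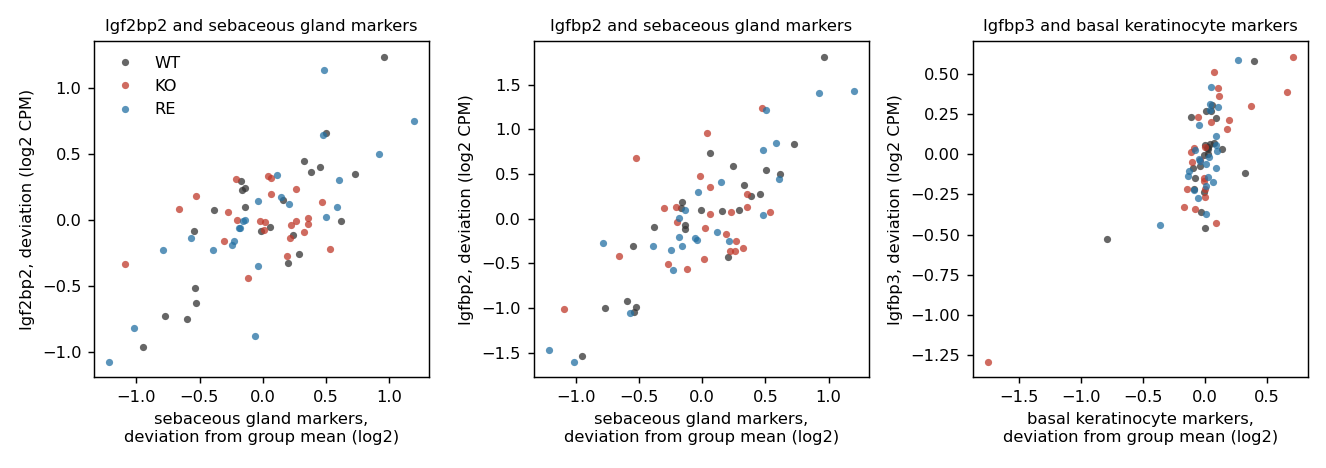
Deviation of Igf2bp2, Igfbp2 and Igfbp3 from their group means against that of marker lists, in log2 units, 1 point per animal. Igf2bp2 and Igfbp2 follow the sebaceous markers (r = 0.69 and 0.80), the KO points of Igf2bp2 lie flat (0.09), and 1 KO animal at the lower left of the Igfbp3 panel stands apart.

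The genes with the most similar pattern over the 18 group means were Stk26, Slc7a2, Csrp2 and Gsdmc for Igfbp5 (r = 0.93 to 0.95). Those for Igf2bp2 were Bend4 (0.96), Osgin1, Clcn3 and Camsap2, and those for H19 were Sqor (0.92), Enah, Bend4 and Bok. Over the deviations of the 72 animals the closest genes were different ones. Igfbp5 went with Col6a1 (0.74), a collagen VI chain that was 0.42 higher on the log2 scale in KO, with the prolactin receptor gene Prlr, with Pdlim4 and with Ptn. Igf2bp2 went with Lpl (0.74), Far2, Tmem45b and Elovl3 (0.72 each), of which Lpl, Far2 and Elovl3 act in lipid metabolism, and all 4 differed in KO in the direction opposite to Igf2bp2 (-0.84, -0.50, -0.68 and -0.52). H19 went with the oxidase gene Duox1 (0.60), Morc4, Coro2a and Ywhah. Each was ranked over 12655 genes and is a description.

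Outside the 10 genes, 48 of 54 listed genes of IGF signalling could be tested, and 13 were called between KO and WT: 5 higher (10.4%, against 14.6% of all genes) and 8 lower (16.7%, against 13.6%). Their median log2 difference was 0, and that over all genes was -0.003. Deptor, which encodes an inhibitor of mTOR, fell most clearly, from 47.0, 74.0 and 128 CPM in WT (lowest, median, highest) to 22.4, 35.6 and 87.7 CPM in KO, and read 55.1, 69.4 and 115 CPM in RE. The log2 differences were -0.79 ± 0.11 for KO minus WT (adjusted p = 5.97e-08) and 0.79 ± 0.11 for RE minus KO (adjusted p = 1.05e-07). Socs2, a feedback inhibitor of growth hormone signalling, fell likewise (-0.93 ± 0.22, adjusted p = 0.000797) and rose in RE (0.96 ± 0.22, adjusted p = 0.000865).

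Of the listed regulatory subunits of PI3K, Pik3r3 rose by 0.46 ± 0.10 (edgeR adjusted p = 0.000316) and Pik3r2 by 0.16 ± 0.04 (adjusted p = 0.00111). Pik3r1, at a higher WT median (141 CPM) than these, was not called (0.09 ± 0.10, adjusted p = 0.569). Ptpn11, which encodes the phosphatase SHP2 (0.11 ± 0.02, adjusted p = 8.01e-05), Tsc2 (0.10 ± 0.03) and Kazald1 (0.33 ± 0.10) rose. Socs3 (-0.47 ± 0.15), Stc2, an inhibitor of the IGFBP protease PAPP-A (-0.76 ± 0.28, adjusted p = 0.0336, and 0.0526 with a replicate block), Foxo6 and Grb2 fell. None of the 3 ligand and receptor genes tested was called (1 at an unadjusted p under 0.05): Igf2r differed by -0.10 ± 0.05, Insr by -0.03 ± 0.05 and Igf1 by -0.97 ± 0.46 (adjusted p = 0.107). For rhythm, 7 of the 48 were called in WT (against 11% of all genes), 6 in KO (against 5.87%) and 2 in RE (against 2.7%). Deptor cycled in WT (0.99 ± 0.22, adjusted p = 0.00306), as did Foxo3 (0.54 ± 0.12, adjusted p = 0.00289). Between RE and KO 7 were called, 3 higher (6.25%, against 11.5% of all genes) and 4 lower (8.33%, against 11%). Between RE and WT only Kazald1 was called (0.65 ± 0.10, adjusted p = 5.24e-06), where 2.07% of all genes were higher and 1.96% lower.

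Of 38 listed imprinted genes other than H19 and Igf2, 29 were tested, with a median log2 difference of -0.02 between KO and WT. 6 were called, 5 higher (17.2%, against 14.6% of all genes) and 1 lower (3.45%, against 13.6%). The amino acid transporter gene Slc38a4 rose by 0.74 ± 0.15 (adjusted p = 6.80e-05) and was lower in RE than in KO (-1.04 ± 0.15, adjusted p = 1.84e-07). Phlda2, a growth-restraining gene of the placenta, rose by 0.70 ± 0.23 (adjusted p = 0.0166) and fell in RE (-0.94 ± 0.24), Dhcr7, the last enzyme of cholesterol synthesis, rose by 0.47 ± 0.07, and Snrpn and Osbpl5 rose less. Ppp1r9a fell (-1.34 ± 0.28) at a WT median of 0.143 CPM. Between RE and KO 6 were called, 2 higher (6.90%, against 11.5% of all genes) and 4 lower (13.8%, against 11%). None was called between RE and WT, where 3 had an unadjusted p under 0.05. Of all genes, 2.07% were higher and 1.96% lower in that comparison.

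Within 150 kb of H19 or Igf2, 6 other genes could be tested, all on the far side of H19 from Igf2. Over all genes, 14.6% were called higher in KO than in WT and 13.6% lower. Syt8 (0.45 ± 0.10, adjusted p = 0.000294) and Tnni2 (0.69 ± 0.15, adjusted p = 0.000332) rose in KO and fell in RE, at WT medians of 1.51 and 0.386 CPM. Lsp1 (-0.34 ± 0.10) and Mrpl23 (-0.19 ± 0.06), which is the nearest of the 6 to H19, fell, and Prr33 and Tnnt3 were not called. Of let-7 targets and IGF2BP relatives, 7 of 11 listed were tested and 4 were called in KO, 2 higher (28.6%, against 14.6% of all genes) and 2 lower (28.6%, against 13.6%). The chromatin protein gene Hmga1 rose by 0.19 ± 0.04 (adjusted p = 6.73e-05), Nras rose by 0.09 ± 0.02, Arid3b fell by 0.52 on the log2 scale (SE 0.09, adjusted p = 2.73e-06), and Hmga2 fell from a WT median of 0.102 to 0.0463 CPM.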

How the data were processed

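RNA of 72 mouse epidermis samples was sequenced, and the authors deposited raw read counts per gene for each library. Reads were trimmed with Trimmomatic, aligned with TopHat2 2.1.1 to mm10 (GRCm38) and counted with featureCounts, per the submitters' processing notes; no source used here gives the strand setting or annotation. Reads shared by overlapping genes therefore limit Igf2. Of 46078 identifiers, 45229 matched a GENCODE M21 symbol.

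Genes were kept by filterByExpr (minimum count 10), which left 18538, and scaled by TMM. edgeR 4.0.16 in R 4.3.3 was used for a quasi-likelihood fit of a mean, cosine and sine (24 h, an assumed 4 h between time points) per genotype over all 72 libraries, with 63 residual degrees of freedom and Benjamini-Hochberg adjustment over all genes; an adjusted p under 0.05 is a call. log2 CPM used a prior count of 2. Covariation was tested by 100000 permutations within groups, two-sided, where 1e-05 is the smallest p they can give. DESeq2 1.42.0, RLE scaling, no filter, time as a factor, a replicate block and left-out libraries or time points were alternatives. The fits were tested on simulated data.

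Total counts were 24.5 to 95.0 M per library. No replicate pair agreed within sampling noise (108 pairs, chi-square per gene 7.93 to 275). The p-values measure the spread between these animals. The members and gene lists were chosen with earlier results of these data known. All 10 members were named, with up to 4 called genes per list and comparison by adjusted p; the other called genes of the lists were named after their values were seen. Single values of some list genes are not reported here.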

Additional observations from a re-analysis of the deposited data

Results flagged for a closer look

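In 10 of the 180 groups of 4 animals formed by the 10 genes, 1 animal lay far from the other 3 by Dixon's criterion, where chance gives about 1 in 20; 4 were low and 6 high. Igfbp5 read 5.76 CPM in replicate 4 of RE at time point 3, against 2.36 to 2.70 in the others. Igf2 read 0.119 CPM in replicate 3 of WT at time point 5 (others 0.298 to 0.347) and 0.808 CPM in replicate 3 of KO at time point 6 (others 0.237 to 0.295). Igf1r read 41.9 CPM in replicate 4 of WT at time point 1 (others 45.6 to 45.9). Igfbp2 was high in RE at 4.44 CPM (replicate 4, time point 2) and 4.68 CPM (replicate 1, time point 5). Igfbp3 read 688 CPM in replicate 1 of WT at time point 5, 203 CPM in replicate 4 of KO at time point 6 and 866 CPM in replicate 4 of RE at time point 1. Igfbp4 read 33.8 CPM in replicate 4 of KO at time point 5.

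Among the other genes of the lists, a rhythm that differed between KO and WT was called by edgeR's test for Grb2 (adjusted p = 0.0229), Ptpn11 (0.0321), Deptor (0.0344), Arid3a (0.0433) and the imprinted gene Mkrn3 (0.00741).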

How the results depend on the processing

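KO minus WT kept its sign for all 10 genes under every alternative run. Differences near 0 crossed it under some: RE minus KO of Igf1r, Igfbp3 and Igfbp6, and RE minus WT of H19, Igf2, Igf2bp2, Igfbp2, Igfbp3, Igfbp6 and Igfbp7. Leaving out 1 library moved KO minus WT from -3.16 to -2.98 for Igfbp5, 1.69 to 1.87 for Igf2bp2 and 1.90 to 2.14 for H19. Genes called for a rhythm in KO numbered 0, but 1 with DESeq2, with time point as a factor and without time point 3 or 4, 2 without time point 5, and 0 to 3 without 1 library; a different rhythm in KO and WT was called for 1 without time point 1, 4 or 5, and for 0 to 1 without 1 library. IGF signalling calls were 8 without time point 2 (KO minus WT), 4 without time point 5 (RE minus KO) and 3 with DESeq2 (RE minus WT). Imprinted calls were 3 without time point 2 or 5 (KO minus WT), 3 without time point 2 (RE minus KO) and 0 to 1 without 1 library (RE minus WT). The relation of H19 with Igfbp5 was 0.32 without the 2 farthest libraries, 0.35 and 0.21 without time point 3 and 4, and 0.29 to 0.48 without 1 library. It was no longer called without WT replicates 1 or 3 of time point 3, 2 or 4 of time point 4, 2 of time point 5 or 3 of time point 6; KO replicates 3 of time point 2, 4 of time point 3, 1 of time point 4, 2 or 4 of time point 5 or 3 of time point 6; or RE replicates 1, 2, 3 or 4 of time point 4 or 3 or 4 of time point 6. The relation of Igfbp2 with Igfbp5 was 0.37 and called without time point 5. The causes were not tested.

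Same-numbered samples did not deviate together (mean r -0.008 against 0.003 for other pairs), so the numbers do not pair the animals. With the replicate block the calls of Stc2 (KO minus WT, adjusted p = 0.0526) and Rheb (RE minus KO, 0.0571) were lost by edgeR, H19 with Igfbp5 gave r = 0.33 (adjusted permutation p = 0.0644), and IGF signalling calls in KO minus WT were 12. Depth limits Igf2 and Igfbp6, with WT medians of 13.5 and 9.5 reads.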
